A study of Homo sapiens with 30 samples.

Results

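Potassium channel genes were taken as all genes whose symbol consists of KCN, 1 or more letters and a number. This rule selected 91 of the 39126 genes counted in whole-cell RNA, and the same 91 identifiers were found among the 55548 genes counted in nuclear RNA. By class they were 39 voltage-gated alpha subunits, 15 inward rectifiers, 15 two-pore domain channels, 7 calcium- or sodium-activated channels and 15 auxiliary subunits. KCNE5, an auxiliary subunit that the count table lists under its older symbol KCNE1L, does not match the rule and is not among them.

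RNA sequencing of Hues6 human embryonic stem cells labelled QKI knockout (KO) was set against wild type (WT) at day 0, day 4 and day 8 of differentiation toward cardiomyocytes (D0, D4 and D8), with 3 libraries in each of 6 whole-cell groups. QKI is an RNA-binding protein that controls splicing. D0 cells were pluripotent and D4 cells were cardiac progenitors, while D8 cultures were taken once they beat. To start differentiation the KO cells received 1.25 uM CHIR, an activator of WNT signalling, and the WT cells 1.5 uM; both received 1.5 ng/mL BMP4 and later 100 nM of the WNT inhibitor C59. KO differences after D0 therefore cannot be told apart from this difference in dose. Nuclear RNA of D8 cells was sequenced in 3 libraries labelled KO and 3 WT libraries, and 293T cells, a human embryonic kidney line, were given an siRNA against QKI or a non-targeting siRNA, with 3 libraries each. The labels give neither the allele nor the clone of the KO line. Nothing in them tells if replicate libraries were grown as separate cultures, so each p-value reflects the spread among these libraries alone, which may be technical. WT nuclear replicates 2 and 3 differed by little more than counting error, with a chi-square per gene of 1.22. In the other pairs of libraries within a group this value lay between 2.91 and 62.2. The nuclear p-values still count these WT libraries as separate.

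Total counts lay between 40001076 and 89948185 per whole-cell library, between 9882089 and 15030590 in nuclear libraries labelled KO, and between 6549676 and 8896202 in WT nuclear libraries. The 91 genes took up a small share of them: 0.0328 to 0.0347% in KO and 0.0333 to 0.0361% in WT at D0, 0.0618 to 0.0629% in KO and 0.045 to 0.0473% in WT at D4, and 0.0706 to 0.0762% labelled KO and 0.0604 to 0.0654% in WT at D8. QKI itself averaged, in CPM (reads per gene scaled to library size), 39.4 ± 3.3 in KO and 293 ± 7.4 in WT at D0, and 78.2 ± 10 in KO and 146 ± 8.9 in WT at D4 (SD, n = 3 each). At D8 it averaged 335 ± 5.3 CPM in the libraries labelled KO and 324 ± 42 in WT, and in nuclear RNA 505 ± 31 labelled KO and 160 ± 25 in WT. At D8 the gene's level goes against the label. The summed level of 12 cardiomyocyte markers was 30100 to 35300 CPM in D8 libraries labelled KO and 11000 to 18900 in WT. That of 9 surface ectoderm and amnion markers was 256 to 339 CPM labelled KO and 1010 to 1580 in WT. That of 8 pluripotency markers was 545 to 636 CPM labelled KO and 1370 to 1810 in WT. None of these markers was at 0 in either group. At D8 the sums of 6 endothelial markers (632 to 689 CPM labelled KO, 294 to 353 in WT), 6 endoderm markers (280 to 423 labelled KO, 135 to 212 in WT) and 8 smooth muscle and fibroblast markers (1820 to 2080 labelled KO, 1070 to 1240 in WT) were higher too. At D4 the cardiomyocyte sum was 407 to 521 CPM in KO and 300 to 351 in WT. The endothelial sum was 395 to 441 in KO and 193 to 228 in WT, and the endoderm sum 202 to 221 in KO and 77.3 to 86.2 in WT. In nuclear RNA the cardiomyocyte sum was 62300 to 75100 CPM labelled KO and 16700 to 22700 in WT, and the endothelial 444 to 489 labelled KO and 73.9 to 79.7 in WT. Yet of these 6 endothelial markers, edgeR called 1 higher and 5 lower labelled KO in nuclear RNA (median log2 fold change -0.81). The higher endothelial sum in nuclear RNA thus rests on 1 marker. The nuclear endoderm sum was 189 to 485 CPM labelled KO and 17.9 to 21.5 in WT, with 5 of 6 markers called higher and 1 lower. That of surface ectoderm and amnion was 253 to 609 CPM labelled KO and 593 to 908 in WT. The part of these shifts in the D4, D8 and nuclear differences below was not tested, and in bulk RNA a change in the number of cells of a type cannot be told apart from a change in RNA per cell.

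Potassium channels let potassium leave or enter a cell and so set its resting potential and end its action potentials. In heart muscle, the transient outward current (KCND and KCNA4 pores with KCNIP2) shapes early repolarisation. The rapid and slow delayed rectifiers (KCNH2, and KCNQ1 with KCNE1) end the action potential, and inward rectifiers of the KCNJ family hold the membrane at rest. Two-pore domain channels carry background leak currents, and auxiliary subunits change the gating or surface level of the pores they join.

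Skipped exons of KCNH7, KCNIP2 and KCNT2 differed between the arms of the authors' deposited table for D8 and match annotated coding exons. The exons are shown here because the splicing results rest on them, 5′ to 3′ on the coding strand, from GENCODE 29 transcripts (GRCh38). A further exon, of KCNAB2, is added because its inclusion in the second arm was higher at D0 and lower at D4. Capitals mark the exon that is included or skipped and the lower-case letters are the 15 transcript bases on each side.
KCNH7, 21-nt exon: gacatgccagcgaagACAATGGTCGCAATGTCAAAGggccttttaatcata
KCNIP2, 96-nt exon: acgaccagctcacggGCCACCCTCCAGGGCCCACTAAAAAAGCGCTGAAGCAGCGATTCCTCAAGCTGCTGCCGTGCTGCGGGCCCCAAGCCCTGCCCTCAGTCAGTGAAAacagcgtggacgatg
KCNIP2, 54-nt exon: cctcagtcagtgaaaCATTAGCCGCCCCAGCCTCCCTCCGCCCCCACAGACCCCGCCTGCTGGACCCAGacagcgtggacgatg
KCNT2, 72-nt exon: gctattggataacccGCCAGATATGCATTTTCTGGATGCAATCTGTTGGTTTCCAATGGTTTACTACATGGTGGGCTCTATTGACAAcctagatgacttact
KCNAB2, 42-nt exon: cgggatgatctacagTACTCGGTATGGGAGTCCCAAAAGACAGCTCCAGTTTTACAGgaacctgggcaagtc
All 5 exons are a multiple of 3 bases long and lie wholly within coding sequence. For the 54-nt exon of KCNIP2 and the exon of KCNT2, 1 of the 2 neighbouring exons in the authors' file matches the transcript shown, and for the others both do. The authors' coordinates (hg19) are chr2:163369164-163369184 for KCNH7, chr10:103590829-103590924 and chr10:103589601-103589654 for KCNIP2, chr1:196288614-196288685 for KCNT2 and chr1:6101891-6101932 for KCNAB2. In GRCh38 the matching exons lie at chr2:162512654-162512674 (minus strand), chr10:101831072-101831167 and chr10:101829844-101829897 (minus), chr1:196319484-196319555 (minus) and chr1:6041831-6041872 (plus).

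The set of potassium channels that these cells expressed changed with differentiation. At D0 the highest level per kilobase of exon was that of KCNK5, a leak channel, at 17.8 ± 0.825 CPM per kb in KO and 13.9 ± 0.532 in WT (SD, n = 3 each). KCNMB4 and KCNS3 were the other members of the top 3 in both genotypes. At D4 KCNK5 still led, at 17.7 ± 1.41 CPM per kb in KO and 10.9 ± 1.01 in WT. At D8 KCNH2 led in the libraries labelled KO at 20.4 ± 2.55 CPM per kb, against 7.57 ± 1.5 in WT, where KCNIP2 led at 21.1 ± 5.0, against 13.6 ± 0.913 in the libraries labelled KO. Of the 91 genes, 43 in KO and 42 in WT had at least 1 CPM in all 3 libraries at D0, 46 in KO and 46 in WT at D4, and 42 labelled KO and 49 in WT at D8.

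Tested across all 21761 genes that passed a filter on low counts (78 of the 91 channel genes), 63 channel genes differed between D4 and D0 in WT at a Benjamini-Hochberg adjusted p under 0.05, 31 higher at D4 and 32 lower, which is 80.8% of those tested beside 81.0% of all genes (42.0% higher and 39.1% lower). Between D8 and D4 in WT, 35 were higher at D8 and 28 lower, again 80.8%, beside 68.8% of all genes (35% higher and 33.8% lower). In the line labelled KO, D4 against D0 gave 34 higher and 29 lower beside 82.6% of all genes called (44.1% higher and 38.5% lower), and D8 against D4 gave 25 higher and 37 lower beside 75.0% (36.1% higher and 38.9% lower). KCNH7, a voltage-gated channel of the ether-a-go-go family, was among the members that rose most at D8: at D8 it averaged 31.3 CPM in the libraries labelled KO, against 0.0871 at D4 in KO, and 6.3 CPM in WT, against 0.0194 at D4 in WT. KCNK3, an acid-sensitive leak channel, averaged 17.4 CPM in D8 libraries labelled KO and 4.62 in WT, against 0.144 CPM at D4 in either genotype. KCNJ6, a G-protein-gated inward rectifier, fell at D8, to 0.154 CPM in the libraries labelled KO, against 2.69 at D4 in KO, and to 0.222 CPM in WT, against 5.24 at D4 in WT.

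KO and WT differed in 36 of the 78 tested channel genes at D0 (18 higher, 18 lower), 46.2% beside 42.3% of all genes (21.4% higher, 20.9% lower). At D4, 35 differed (26 higher, 9 lower), 44.9% beside 28.4% (16.3% higher, 12% lower), and at D8, 59 differed between the libraries labelled KO and WT (33 higher, 26 lower), 75.6% beside 55.6% (29.4% higher, 26.2% lower). Changes of at least 2-fold numbered 13 at D0, 11 at D4 and 35 at D8, and the shares of all genes with such a change were 8.56%, 5.68% and 16.6%. The median log2 fold change over the tested channel genes was 0.00 at D0, 0.18 at D4 and 0.20 at D8, against -0.01, 0.00 and 0.01 over all genes. By class at D8, 17 of 34 voltage-gated alpha subunits were higher and 10 lower, 6 of 13 inward rectifiers higher and 2 lower, 4 of 12 two-pore domain channels higher and 6 lower, 1 of 6 calcium- or sodium-activated channels higher and 2 lower, and 5 of 13 auxiliary subunits higher and 6 lower. Each class held members that were higher and members that were lower. At D4 the voltage-gated class had 14 higher and 5 lower, the inward rectifiers 6 higher and 1 lower, the two-pore domain channels 4 higher and 1 lower and the auxiliary subunits 2 higher and 2 lower. At D0 the auxiliary subunits had 3 higher and 5 lower, with the lowest class median of that day, -0.47. The KO effect itself (KO over WT, at D8 labelled KO over WT) differed between D4 and D0 in 29 channel genes (16 more positive at D4, 13 more negative), 37.2% beside 39.1% of all genes (20% more positive, 19.1% more negative), and between D8 and D4 in 40 (16 more positive at D8, 24 more negative), 51.3% beside 41.5% (19.6% more positive, 21.9% more negative).

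**Figure D1:**
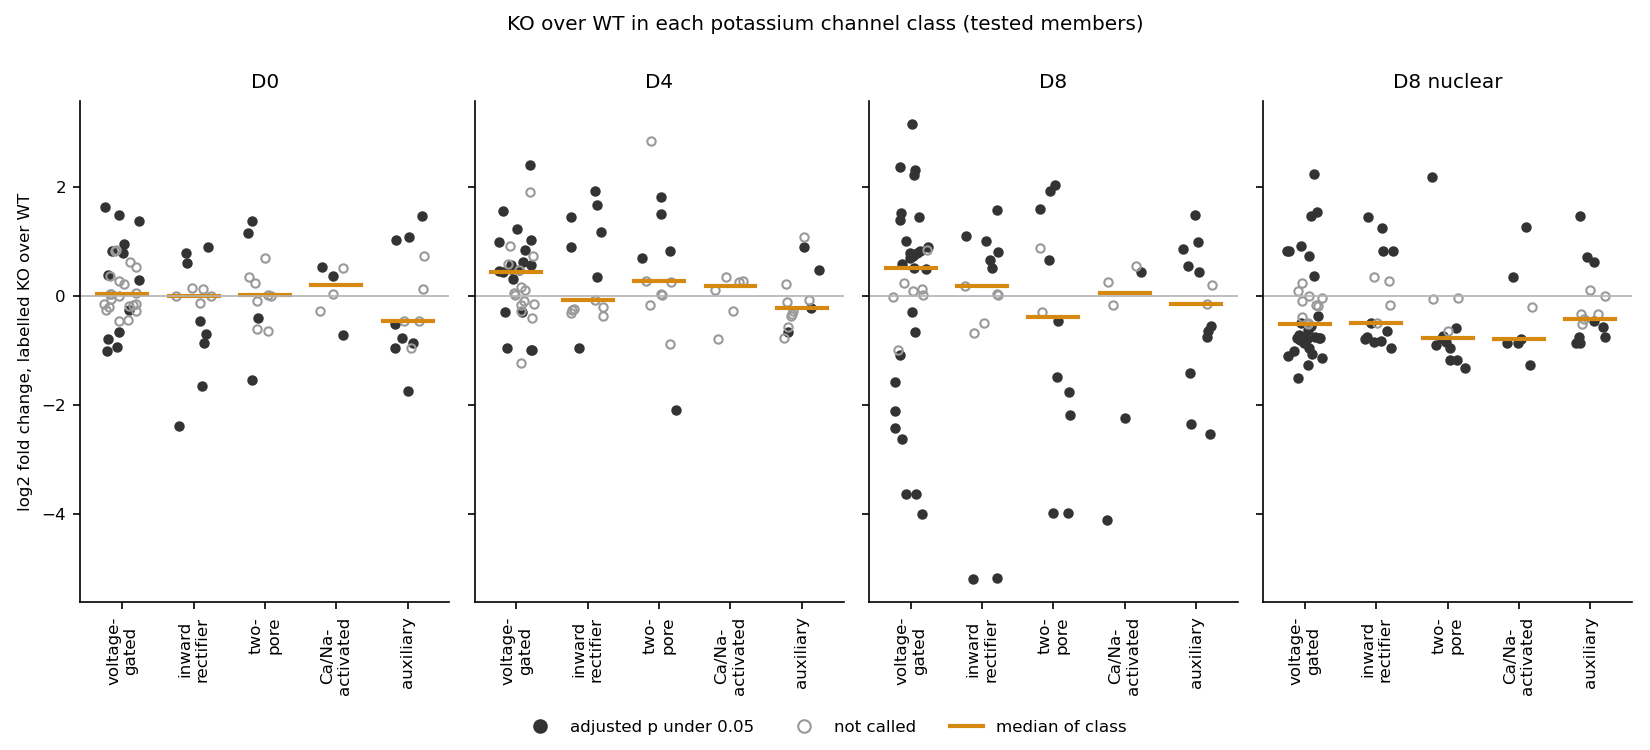
Log2 fold change of KO over WT (at D8, libraries labelled KO over WT) for each tested potassium channel gene, by class and day, with nuclear RNA as the last panel; filled points had an edgeR adjusted p under 0.05, open points did not, and bars are class medians. The D8 whole-cell changes span -5.20 to 3.16, and in nuclear RNA they span -1.50 to 2.24.

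Among the voltage-gated alpha subunits, KCNH2 (ENSG00000055118.10, GRCh38 chr7:150944961-150978315), the pore of the rapid delayed rectifier, had the highest level per kilobase of the class at D8. It stood at 104, 122 and 134 CPM in the libraries labelled KO and at 51.8, 46.9 and 34.7 CPM in WT. All 3 labelled KO lay above all 3 WT, and the edgeR log2 fold change was 1.44 (SE 0.16, adjusted p = 1.6e-07). At D0 the gene had 9.62, 7.53 and 8.96 CPM in KO and 8.44, 10.2 and 8.5 in WT, groups that overlap (log2 fold change -0.05, adjusted p = 0.85). At D4 the values were 18.2, 12.3 and 10.5 CPM in KO and 10.7, 8.17 and 10.7 in WT (0.48, adjusted p = 0.046), and the call rested on single libraries. Without KO replicate 1 the change was 0.21 (adjusted p = 0.40), and without WT replicate 2 it was 0.37 (0.19). Without WT replicate 1 it was 0.55 (0.058) and without WT replicate 3 it was 0.54 (0.055). The call was also lost with DESeq2 size factors (0.46, edgeR adjusted p = 0.059), among genes with a mean of at least 1 CPM (0.45, 0.057) and with the compared groups alone (0.49, 0.056). The KO effect on KCNH2 was larger at D8 than at D4 by 0.95 on the log2 scale (SE 0.24, adjusted p = 0.0027).

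KCNH7 (ENSG00000184611.7, GRCh38 chr2:162371407-162838730) reached 25.7, 31.1 and 37.2 CPM in D8 libraries labelled KO and 7.36, 6.67 and 4.88 CPM in WT. The groups lie far apart, with a log2 fold change of 2.32 (SE 0.14, adjusted p = 3.7e-11), and this is also the gene of the 21-nt exon above. KCNH1, of the same family, was low in both, at 1.83 ± 0.38 CPM labelled KO and 0.202 ± 0.035 in WT, but had the largest increase of any tested member at D8 (3.16, SE 0.31, adjusted p = 3e-08).

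KCNQ1 (ENSG00000053918.11, GRCh38 chr11:2444684-2849110), the pore of the slow delayed rectifier, changed direction between days. At D0 it had 1.68, 1.16 and 1.36 CPM in KO and 2.68, 2.85 and 2.88 in WT (log2 fold change -1.01, SE 0.16, adjusted p = 2.7e-05). At D8 it had 12.5, 14.6 and 14.5 CPM in the libraries labelled KO and 8.9, 8.41 and 6.33 in WT (0.82, SE 0.12, adjusted p = 7.9e-06). The groups overlap on neither day, KO being lower at D0 and the libraries labelled KO higher at D8. KCNQ1OT1, a noncoding RNA transcribed antisense to KCNQ1, averaged 8.36 CPM labelled KO and 12.7 in WT at D8, and in D8 nuclear RNA 312 CPM labelled KO and 157 in WT. As the strand setting of the counts is not given, reads of the pair cannot be told apart. KCNQ5, an M-current channel, went the same way as KCNQ1: KO was lower at D0 (1.31 ± 0.10 CPM against 2.27 ± 0.28 in WT) and higher at D4 (28.4 ± 3.0 against 18.3 ± 1.7 in WT), and the libraries labelled KO were higher at D8 (92.4 ± 6.1 against 35.3 ± 7.5 in WT).

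KCNA5, the pore of the ultrarapid delayed rectifier of atrial muscle, had 15.7, 24.8 and 25.1 CPM in D8 libraries labelled KO and 7.25, 9.67 and 5.97 CPM in WT (log2 fold change 1.52, SE 0.21, adjusted p = 2.7e-06). Both groups spread widely but do not overlap. No difference passed the test at D8 for the pores of the transient outward current. KCND2 averaged 1.27 ± 0.26 CPM labelled KO and 1.19 ± 0.071 in WT (0.09, adjusted p = 0.63). KCND3 averaged 0.826 ± 0.11 labelled KO and 0.707 ± 0.11 in WT (0.23, adjusted p = 0.44), and KCNA4 averaged 2.94 ± 0.46 labelled KO and 2.91 ± 0.96 in WT (0.02, adjusted p = 0.95). KCND1, a further member of that family, was higher in KO at D0 and D4 and in the libraries labelled KO at D8, by 0.82, 0.44 and 0.52 on the log2 scale.

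Some voltage-gated genes fell instead. KCNH8, of the ether-a-go-go superfamily, had 3.85, 3.25 and 2.75 CPM in D8 libraries labelled KO and 5.35, 6.68 and 8.72 CPM in WT (log2 fold change -1.08, SE 0.16, adjusted p = 9e-06). All labelled KO lie below all WT, whereas at D4 the gene was higher in KO, at 9.16 ± 0.95 CPM against 6.21 ± 0.74 in WT (0.56, adjusted p = 0.010), and its KO effect was more negative at D8 than at D4 by -1.63 (SE 0.23, adjusted p = 8.3e-06). KCNA7, a Shaker-type channel of heart and skeletal muscle, had 1.93, 2.58 and 2.48 CPM labelled KO and 4.18, 4.01 and 2.89 CPM in WT at D8 (-0.66, SE 0.18, adjusted p = 0.0039). KCNG3, a silent subunit, was near 0 labelled KO at 0.0747 ± 0.045 CPM, against 0.918 ± 0.27 in WT (-3.64, SE 0.36, adjusted p = 3.1e-08). KCNQ3, an M-current channel, averaged 12.8 ± 1.8 CPM labelled KO and 8.51 ± 3.2 in WT, and so was higher (0.59, SE 0.20, adjusted p = 0.014).

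Further voltage-gated members peaked at other stages. KCNS3, a silent subunit, averaged 25.5 ± 2.1 CPM in KO and 20.9 ± 0.78 in WT at D0, 7.7 ± 0.23 in KO and 9.47 ± 1.2 in WT at D4, and 3.98 ± 0.066 labelled KO and 4.9 ± 0.14 in WT at D8. KCNA1, a Shaker-type delayed rectifier, was highest at D4, at 6.41 ± 0.38 CPM in KO and 5.93 ± 0.52 in WT, and KO exceeded WT at D0 (0.947 ± 0.17 in KO against 0.339 ± 0.099 in WT), as did the libraries labelled KO at D8 (0.96 ± 0.27 against 0.188 ± 0.067 in WT). KCNV1, a silent subunit, had its widest split at D4, at 3.7, 4.07 and 3.34 CPM in KO and 1.16, 1.41 and 1.2 CPM in WT (1.56, SE 0.20, adjusted p = 4.7e-06). KCND2 was lower in KO at D4, at 3.4, 3.33 and 2.6 CPM against 6.84, 6.28 and 5.44 in WT (-0.99, SE 0.13, adjusted p = 4.1e-06). KCND3 was higher in KO at D0, at 1.61, 1.22 and 1.13 CPM against 0.241, 0.364 and 0.653 in WT (1.63, SE 0.27, adjusted p = 4.7e-05), and at D4 the groups overlap. KCNG3 was lower in KO at D4 as well, at 1.83 ± 0.28 CPM against 3.53 ± 0.77 in WT (-0.95, adjusted p = 0.0010).

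**Figure D2:**
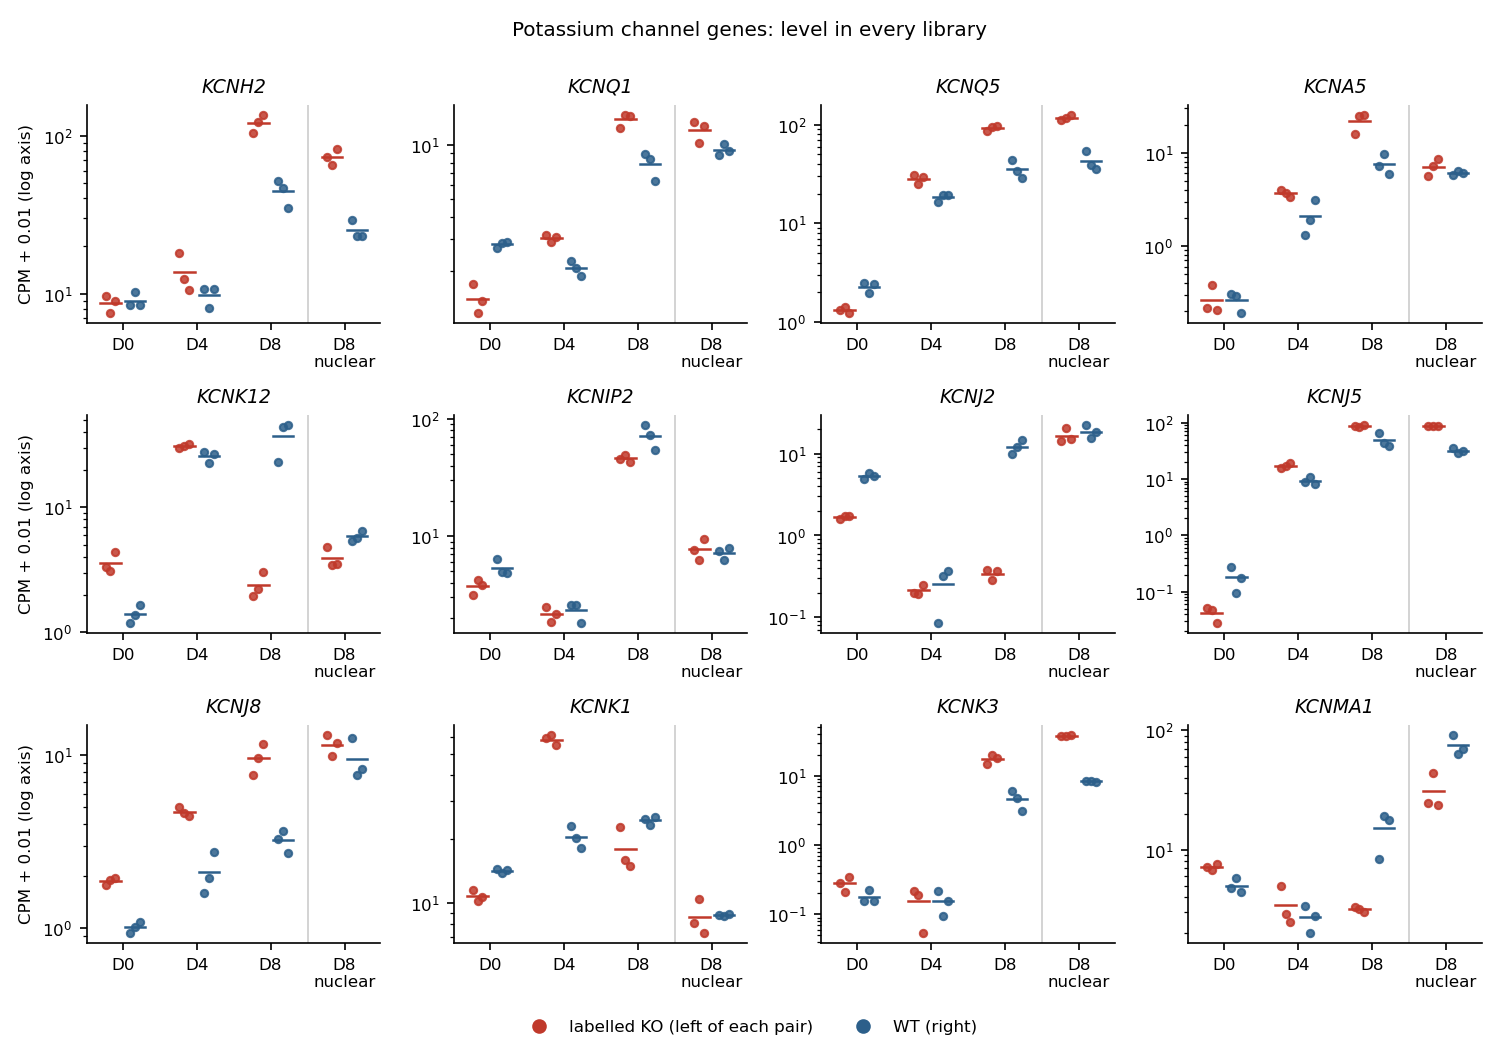
Level of 12 potassium channel genes in every library, as CPM plus 0.01 on a log axis, with KO (at D8 labelled KO) left and WT right at D0, D4, D8 and in D8 nuclear RNA; each point is 1 library and bars are group means on that axis. KCNJ2 in D8 whole-cell RNA lies between 0.273 and 0.371 CPM in the libraries labelled KO and between 9.92 and 14.6 in WT, while its nuclear points overlap.

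Among the inward rectifiers, KCNJ2 (ENSG00000123700.4, GRCh38 chr17:70168673-70180048), the main pore of the classical inward rectifier current of ventricular muscle, had 0.371, 0.273 and 0.355 CPM in the libraries labelled KO and 9.92, 12.1 and 14.6 CPM in WT. This was the largest fall of any tested member (log2 fold change -5.20, SE 0.22, adjusted p = 1.4e-13). It was lower in KO at D0 as well, at 1.57, 1.73 and 1.73 CPM against 4.85, 5.81 and 5.31 in WT (-1.66, SE 0.19, adjusted p = 5.1e-07), and at D4, where it was nearly silent, it averaged 0.203 ± 0.032 CPM in KO and 0.249 ± 0.15 in WT (-0.24, adjusted p = 0.72). In WT it was higher at D8 than at D4 by 5.66 on the log2 scale (adjusted p = 2.3e-14), and in the line labelled KO the same change was 0.71 (adjusted p = 0.089). The difference between these changes was -4.96 (SE 0.53, adjusted p = 3e-07). KCNJ2-AS1, the antisense gene beside it, moved the same way at D8, at 0.295 CPM labelled KO and 2.07 in WT (-2.81, adjusted p = 4e-08).

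The other pores of that current did not follow KCNJ2 at D8. KCNJ12 averaged 17.7 ± 2.3 CPM labelled KO and 12.3 ± 0.82 in WT (0.52, SE 0.11, adjusted p = 0.00043), a value that is uncertain because the near-identical KCNJ18 can share its reads. KCNJ4 averaged 2.61 ± 0.30 CPM labelled KO and 2.59 ± 0.63 in WT (0.02, adjusted p = 0.95). KCNJ5 (ENSG00000120457.7), a subunit of the acetylcholine-activated channel of atrial and pacemaker cells, rose at D8: it had 85.8, 85.2 and 89.2 CPM labelled KO and 66.4, 42.7 and 39.2 in WT (0.81, SE 0.14, adjusted p = 4.6e-05), and the group labelled KO was the tighter of the pair. Its partner KCNJ3 was far lower, at 0.962 ± 0.32 CPM labelled KO and 0.482 ± 0.078 in WT (1.01, SE 0.25, adjusted p = 0.0016).

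Pores of the ATP-sensitive channels also rose. KCNJ8 had 7.62, 9.63 and 11.6 CPM in D8 libraries labelled KO and 3.28, 3.65 and 2.72 CPM in WT (1.58, SE 0.16, adjusted p = 4.8e-08), and KCNJ11 averaged 15.4 ± 2.2 CPM labelled KO and 9.81 ± 1.7 in WT (0.65, SE 0.12, adjusted p = 0.00012). Of their sulfonylurea receptor partners, ABCC8 averaged 0.421 CPM labelled KO and 0.203 in WT (1.02, adjusted p = 0.039), and ABCC9 averaged 0.816 CPM labelled KO and 0.582 in WT (0.49, adjusted p = 0.19). KCNJ13, a weak rectifier of epithelia, averaged 0.0535 ± 0.068 CPM labelled KO and 2.11 ± 0.50 in WT (-5.18, SE 0.44, adjusted p = 3.7e-08), and at D4 it was higher in KO, at 0.33 ± 0.12 CPM against 0.106 ± 0.041 in WT. KCNJ16, a pH-sensitive rectifier, had no counts at D0 and at D4 stood at 1.31, 1.21 and 1.42 CPM in KO and 0.375, 0.27 and 0.384 in WT (1.93, adjusted p = 0.0020).

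Two-pore domain channels moved in both directions. KCNK3 (ENSG00000171303.5, GRCh38 chr2:26692690-26733420) had 14.8, 19.6 and 17.8 CPM in D8 libraries labelled KO and 6, 4.74 and 3.11 CPM in WT (log2 fold change 1.92, SE 0.19, adjusted p = 3.1e-08). KCNK12, a member of this family that gives little or no current alone, had 1.92, 2.19 and 3.02 CPM labelled KO and 22.9, 43.7 and 45.4 in WT (-3.98, SE 0.22, adjusted p = 5.8e-12). Neither pair of groups overlaps at D8, and the directions are opposite. KCNK12 itself was higher in KO at D0, at 3.6 CPM against 1.38 in WT (1.38, SE 0.26, edgeR adjusted p = 0.00024). KCNK5, the leading member of D0 cells, fell to 2.75, 1.55 and 1.47 CPM at D8 in the libraries labelled KO, against 5.49, 9.32 and 11.6 in WT (-2.19, SE 0.22, adjusted p = 3.3e-08). At D4 it was higher in KO, at 66.6 ± 5.3 CPM against 41.1 ± 3.8 in WT (0.70, SE 0.17, adjusted p = 0.0030).

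KCNK1, a weakly conducting leak channel, had its largest KO difference at D4, with 59.4, 61.1 and 54.9 CPM in KO and 22.9, 20.3 and 18.1 CPM in WT (1.51, SE 0.11, adjusted p = 3.2e-09). At D0 the KO libraries, and at D8 those labelled KO, were the lower ones: 11.6, 10.2 and 10.7 CPM against 14.5, 13.9 and 14.3 in WT at D0 (-0.40, adjusted p = 0.010), and 22.7, 15.9 and 15 CPM labelled KO against 24.8, 23.3 and 25.3 in WT at D8 (-0.46, adjusted p = 0.0016). KCNK10, a mechanosensitive leak channel, was also higher in KO at D4, at 1.88 ± 0.42 CPM against 0.533 ± 0.15 in WT (1.82, SE 0.29, adjusted p = 6.4e-05).

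Of the calcium-activated channels, KCNMA1, the large-conductance pore, had 3.32, 3.19 and 3.02 CPM in D8 libraries labelled KO and 8.35, 19.1 and 17.8 CPM in WT. All labelled KO lie below all WT, although the WT libraries spread over more than a factor of 2 (log2 fold change -2.25, SE 0.25, adjusted p = 2.3e-07). Its beta subunits did not follow as a group. KCNMB1 was higher (8.63 ± 1.2 CPM labelled KO against 4.36 ± 0.84 in WT; 0.99, adjusted p = 5e-06), KCNMB4 was higher (31.8 ± 1.1 against 21.9 ± 1.3; 0.54, adjusted p = 9.8e-07) and KCNMB3 was lower (1.25 ± 0.22 against 2.11 ± 0.24; -0.76, adjusted p = 0.00033). KCNN2, a small-conductance channel of atrial muscle, averaged 35.2 ± 3.5 CPM labelled KO and 26.1 ± 0.65 in WT (0.43, SE 0.084, adjusted p = 2e-04). KCNN4, the intermediate-conductance channel, averaged 0.0411 ± 0.0066 CPM labelled KO and 0.747 ± 0.38 in WT (-4.12, SE 0.54, adjusted p = 1.6e-06).

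Auxiliary subunits of the cardiac currents were split as well. KCNIP2 (ENSG00000120049.14, GRCh38 chr10:101825974-101843920), the calcium-binding partner of the KCND pores, had 45.5, 49.4 and 43.3 CPM in D8 libraries labelled KO and 88.2, 73.3 and 54.1 CPM in WT (log2 fold change -0.64, SE 0.14, adjusted p = 5e-04). The libraries labelled KO are close together and all lie below the lowest WT library. KCNE1, the partner of KCNQ1, had 0.541, 0.59 and 0.388 CPM labelled KO and 3.11, 2.52 and 2.24 CPM in WT (-2.36, SE 0.22, adjusted p = 1.1e-08), in the opposite direction to KCNQ1 itself. KCNE2 averaged 0.632 ± 0.15 CPM labelled KO and 0.553 ± 0.071 in WT (0.20, adjusted p = 0.58). KCNIP4 had 6.62, 6.68 and 4.15 CPM labelled KO and 3.44, 1.43 and 1.36 in WT (1.49, SE 0.29, adjusted p = 0.00016). KCNAB2, a cytoplasmic beta subunit of the KCNA channels, was lower in KO at D0 (3.64 ± 0.22 CPM against 6.63 ± 0.56; -0.87, adjusted p = 5.8e-06) and higher at D8 (14.6 ± 1.6 labelled KO against 8.07 ± 1.2; 0.86, adjusted p = 7.4e-07). KCNAB3 of the same family fell at D0, to 1.63, 1.53 and 1.34 CPM in KO, against 4.98, 5.7 and 4.42 in WT (-1.74, SE 0.13, adjusted p = 3.4e-09).

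KO (at D8 labelled KO) was higher on all 3 days in 6 members (KCNA6, KCND1, KCNE3, KCNJ3, KCNJ8 and KCNV1), 7.69% of those tested beside 1.96% of all genes, and lower on all 3 in 2, 2.56% beside 1.49%. KCNE3, an auxiliary subunit that keeps KCNQ1 open, had 9.69, 10.8 and 10.8 CPM in KO and 3.94, 3.81 and 3.59 in WT at D0 (1.46, adjusted p = 2.8e-08), and 3.35, 3.15 and 3.51 CPM labelled KO and 2.21, 2.46 and 2.75 in WT at D8 (0.43, adjusted p = 0.011). Scaled by total counts, the D8 change of KCNE3 was 0.29 (adjusted p = 0.091). Some of these calls rest on single libraries at D0. For KCNV1 every library left out ends the D0 call (0.67 to 0.85, adjusted p 0.058 to 0.13). For KCNJ3 leaving out WT replicate 2 gives 0.68 (adjusted p = 0.079), WT replicate 3 0.61 (0.10), KO replicate 1 0.69 (0.070) and KO replicate 3 0.76 (0.056). For KCNA6 leaving out WT replicate 3 gives 0.31 (0.068). At D8 the KCNV1 difference of 0.49 is 0.14 without labelled KO replicate 1 (adjusted p = 0.43), 0.43 without WT replicate 2 (0.076) and 0.50 without WT replicate 3 (0.053). It was 0.36 when scaled by total counts (adjusted p = 0.11) and 0.44 with the compared groups alone (0.15). Another 18 members were higher on at least 1 day and lower on another, 23.1% beside 18.3% of all genes. On none of the days were 7 members called, 8.97% beside 22.6% of all genes, among them KCNA4, KCNB2, KCNE2, KCNJ1, KCNJ14 and KCNT2.

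Nuclear RNA of the same day gave a different balance. Of 88 channel genes tested among 30481, 18 were higher labelled KO than in WT (31.2% of all genes) and 46 were lower (32.8% of all genes), in sum 72.7% beside 64.0%, with a median log2 fold change of -0.52 against -0.27 over all genes. Changes of at least 2-fold numbered 18, and 24.6% of all genes had one. Scaled by total counts, 10 were higher and 61 lower. Of all genes called with that scaling, 25.6% were higher, and the median of all genes was -0.72. The calls divided by the level in whole-cell RNA. Among the 50 channel genes with at least 1 CPM in all 3 D8 whole-cell libraries of a genotype, 16 were higher (32%) and 15 lower (30%), with a median of -0.08. Of the other genes at that level, 59.9% were higher and 12.5% lower, with a median of 0.53. Among the 38 channel genes below it, 2 were higher (5.26%) and 31 lower (81.6%, median -0.80), beside 4.26% higher and 51.2% lower of the other genes below it (median -0.72).

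Of the 78 channel genes tested in both fractions, 14 were higher labelled KO in both (17.9%, beside 19.9% of all genes tested in both) and 17 lower in both (21.8% beside 8.16%). A further 10 were higher labelled KO in whole-cell RNA and lower in nuclear RNA (12.8% beside 3.54%), and 1 was lower in whole-cell and higher in nuclear RNA (1.28% beside 9.45%). Opposite calls with no overlap of libraries in either fraction numbered 9, 11.5% beside 11.4% of all genes. KCNH2 had 72.7, 65.3 and 81.9 CPM in nuclear libraries labelled KO and 29.3, 23.2 and 23.1 CPM in WT (1.54, SE 0.14, adjusted p = 1.1e-10), close to its whole-cell change of 1.44. KCNH7 had 201, 210 and 233 CPM labelled KO and 60.9, 35.6 and 39.6 CPM in WT (2.24, SE 0.17, adjusted p = 1.8e-12). KCNK3 had 37.1, 37.9 and 38.2 CPM labelled KO and 8.51, 8.38 and 8.16 CPM in WT (2.18, SE 0.14, adjusted p = 6e-14). In all 3 genes every nuclear library labelled KO lay above every WT one, as in whole-cell RNA. KCNJ5 followed, at 86.7 ± 0.25 CPM labelled KO and 31.8 ± 2.8 in WT (1.44, adjusted p = 1.4e-10), as did KCNQ5 at 118 ± 6.0 CPM labelled KO and 42.8 ± 9.6 in WT (1.46, adjusted p = 1.1e-09). KCNQ1 passed narrowly, at 12.1 ± 1.7 CPM labelled KO and 9.42 ± 0.64 in WT (0.36, adjusted p = 0.0496), and lost the call without any 1 nuclear library other than labelled KO replicate 2 (0.31 to 0.38, adjusted p 0.056 to 0.18). It was also lost among genes with a mean of at least 1 CPM (0.35, edgeR adjusted p = 0.057), by the DESeq2 Wald test (0.49, adjusted p = 0.053) and with a replicate block (0.36, adjusted p = 0.081). Scaled by total counts it was -0.09 (adjusted p = 0.72). The antisense KCNQ1OT1 was far above it in these libraries, at the levels given with the whole-cell values.

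KCNJ2 was called at D8 in whole-cell RNA and not in nuclear RNA. Its nuclear values were 14.4, 20.5 and 14.9 CPM labelled KO and 22.1, 15.4 and 18.3 CPM in WT, overlapping groups with a log2 fold change of -0.16 (SE 0.15, adjusted p = 0.35), beside -5.20 in whole-cell RNA. Without nuclear labelled KO replicate 2 the change was -0.35 (adjusted p = 0.031), and scaled by total counts it was -0.62 (adjusted p = 0.00088). KCNIP2 had 7.57, 6.29 and 9.44 CPM labelled KO and 7.39, 6.29 and 7.84 CPM in WT (0.11, adjusted p = 0.62). As the fractions were counted and scaled in separate tables, the difference between their KO effects was not tested for any gene.

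**Figure D3:**
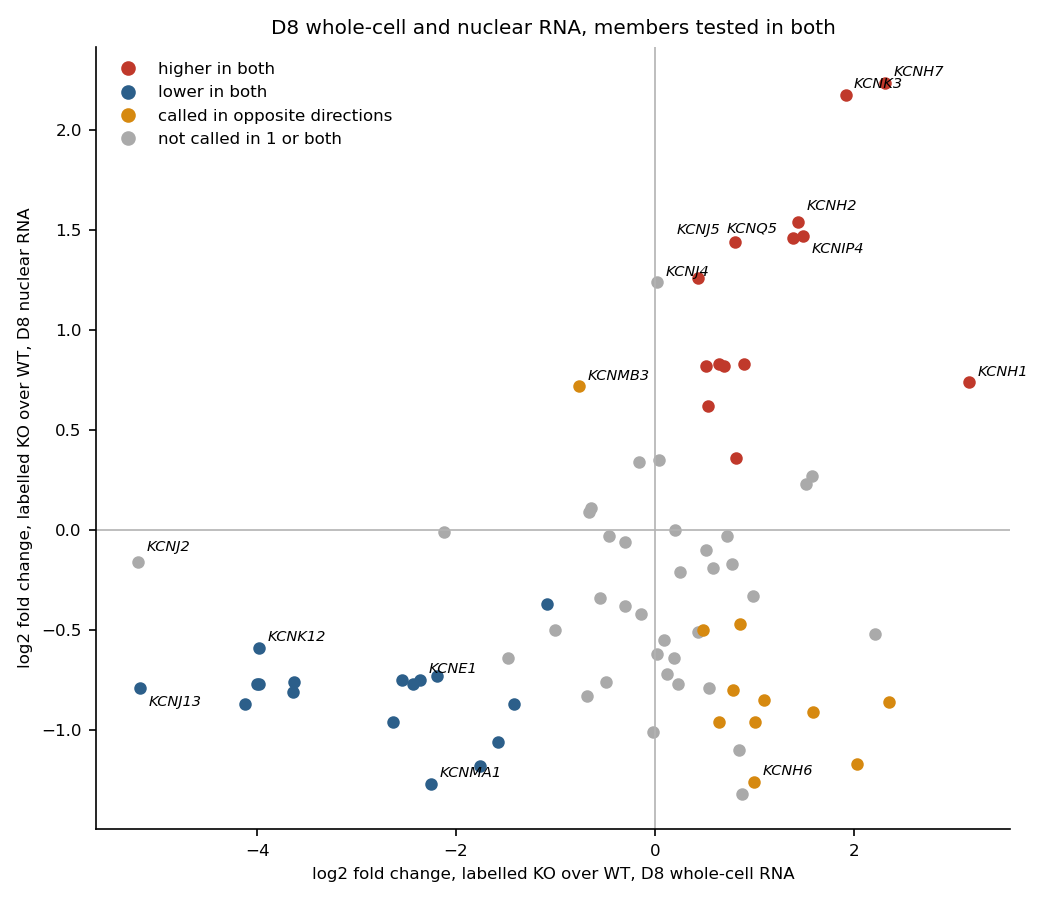
Log2 fold change of libraries labelled KO over WT at D8 for the 78 channel genes tested in both tables, whole-cell RNA across and nuclear RNA up; colours give the calls in each. KCNJ2 lies far left at a nuclear change near 0, while KCNH7, KCNK3 and KCNH2 are high in both.

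A list of 26 genes of the cardiac potassium currents was counted apart, 25 of them in the table and 24 tested in whole-cell RNA. At D0, 6 were higher and 11 lower in KO (median log2 fold change -0.34). At D4, 9 were higher and 2 lower (0.02), and at D8 12 were higher and 6 lower (0.43). Of all genes, 21.4% were higher and 20.9% lower at D0, 16.3% and 12% at D4, and 29.4% and 26.2% at D8. Of 16 tested genes for partners of these channels (scaffolds and accessory subunits outside the KCN symbols), 12 were higher and 1 lower at D8 (median 0.80), beside 29.4% higher and 26.2% lower of all genes. At D0 the partners had 1 higher and 7 lower (median -0.22), and in nuclear RNA 7 of 18 were higher and 5 lower (median -0.16). Of the cardiac potassium current list, 8 of 25 were higher and 10 lower in nuclear RNA (median -0.03). Of all genes tested in nuclear RNA, 31.2% were higher and 32.8% lower. DPP6, an accessory subunit of the KCND pores, averaged 50.9 CPM labelled KO and 14 in WT (1.86, adjusted p = 8e-08), whereas its nuclear level was 10.7 CPM labelled KO and 19.6 in WT (-0.88, adjusted p = 1.3e-05). Of 25 genes for other cardiac ion currents, 19 were higher and 3 lower at D8 (median 0.84), among them the pacemaker channel HCN4 at 225 CPM labelled KO and 62.6 in WT (1.85, adjusted p = 1.2e-11). In nuclear RNA 20 of these 25 were higher and 3 lower labelled KO (median 1.47), beside 31.2% higher and 32.8% lower of all genes. The whole-cell cardiomyocyte marker sum was higher labelled KO at D8, and at D0, where it was low, it was 23.9 to 25.7 CPM in KO and 12.1 to 14.6 in WT; its part in these counts was not tested.

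Exon use was read from the authors' deposited tables of skipped exons, which give an inclusion level between 0 and 1 per library for a first and a second arm of 3 libraries, without naming either arm. An exon counts as called here where the authors' FDR was under 0.05, the arms differed by 0.1 or more and each arm had on average 10 or more junction reads per library. In the authors' deposited tables, potassium channel events that passed the read minimum numbered 64 for D0, 42 for D4, 77 for D8 and 10 for 293T cells. Called among them were 2 for D0 (3.12%, beside 2.36% of all events), 1 for D4 (2.38%, beside 1.1%), 6 for D8 (7.79%, beside 2.23%) and 0 for 293T cells (0.0%, beside 0.449%). The second arm was higher in 1 of the 2 D0 events (all events 1.06% higher, 1.31% lower). It was lower in the 1 D4 event (all events 0.556% higher, 0.539% lower) and higher in 5 of the 6 D8 events (all events 1.21% higher, 1.02% lower). In 293T cells 0.273% of all events were higher and 0.175% lower. A limma test of the logit inclusion per library, with the same smallest difference, called 0 potassium channel events at an adjusted p under 0.05, beside 0.252% of all events for D0, 0.122% for D4, 0.447% for D8 and 0.1% for 293T cells. At an unadjusted p under 0.05 it counted 4 of 64 for D0 (6.25%, beside 7.07% of all events), 1 of 42 for D4 (2.38% beside 4.58%), 8 of 77 for D8 (10.4% beside 6%) and 1 of 10 for 293T cells (10% beside 4.84%).

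The 21-nt exon of KCNH7 showed the largest difference. In the authors' deposited table for D8 its inclusion was 0.968, 0.964 and 0.939 for the second arm and 0.017, 0.248 and 0.032 for the first, a difference of 0.858, from means of 152 junction reads per second-arm library and 34.3 per first-arm library. Nearly all KCNH7 junctions held the exon in one arm and nearly all skipped it in the other. The limma adjusted p was 0.082. At D0 the authors' deposited table lists the exon with 4.7 and 3.0 reads per library, under the minimum.

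Both KCNIP2 exons were minor in both arms with the neighbours of the called events. Measured against the same pair of neighbours, the 96-nt exon had an inclusion of 0.191, 0.244 and 0.169 for the second arm and 0.029, 0.071 and 0.043 for the first in the authors' deposited table for D8 (difference 0.154, from 105.3 and 229.7 reads per library). The 54-nt exon had 0.127, 0.141 and 0.089 for the second arm and 0.011, 0.003 and 0.025 for the first in the authors' deposited table (difference 0.106, FDR 2.1e-12), and without second-arm library 2 the difference was 0.095, under the minimum. These 2 events share their skipping reads and are not independent. With another neighbouring exon upstream, the 96-nt exon had 0.136, 0.088 and 0.1 for the second arm and 0.039, 0.087 and 0.06 for the first in the authors' deposited table (difference 0.046, FDR 0.43). With the 96-nt exon as its upstream neighbour, the 54-nt exon had 0.6, 0.73 and 0.628 for the second arm and 0.455, 0.245 and 0.602 for the first in the authors' deposited table for D8 (difference 0.219, FDR 0.3), overlapping and not minor.

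The 72-nt exon of KCNT2, a sodium-activated channel, had an inclusion of 0.127, 0.404 and 0.567 for the second arm and 0.082, 0 and 0 for the first in the authors' deposited table for D8 (difference 0.339, FDR 4e-05). It rests on 10.3 and 13.3 reads per library, and the second arm is widely spread. The 42-nt exon of KCNAB2 changed sign between days: in the authors' deposited table for D0 it had 0.151, 0.27 and 0.417 for the second arm and 0.133, 0.03 and 0.115 for the first (difference 0.187, FDR 0.0095; 0.118 without second-arm library 3), and in that for D4 0, 0.083 and 0 for the second arm and 0.439, 0.293 and 0.142 for the first (difference -0.264, FDR 3.7e-05). In the authors' deposited table for D8 it had means of 0.423 (second arm) and 0.306 (first), overlapping and not called. As the arms are unnamed, the labels do not tell whether the second arm holds the same genotype in each table.

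KCNG1, a silent subunit, had 2 called exons, both outside coding sequence in the matching transcripts. Its 58-nt exon (hg19 chr20:49628896-49628953) had an inclusion of 0.584, 0.651 and 0.679 for the second arm and 0.918, 0.937 and 0.726 for the first in the authors' deposited table for D0 (difference -0.222, FDR 0.0058). Paired with its other upstream neighbours, the same exon had in the authors' deposited table at D0 mean inclusions of 0.903 for the second arm and 0.949 for the first (difference -0.046, FDR 0.61), or 0.929 for the second and 0.951 for the first (difference -0.021, FDR 1.0). Its 116-nt exon (hg19 chr20:49630266-49630381) had 0.187, 0.212 and 0.099 for the second arm and 0.321, 0.371 and 0.317 for the first in the authors' deposited table for D8 (difference -0.170, FDR 0.0012). With other neighbours that passed the read minimum its D8 difference in the authors' deposited table was -0.126 (FDR 0.31) or -0.039 (FDR 1.0). In both called events every second-arm library lay below every first-arm library. Inclusion levels carry counting error from the junction reads beside the spread shown.

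**Figure D4:**
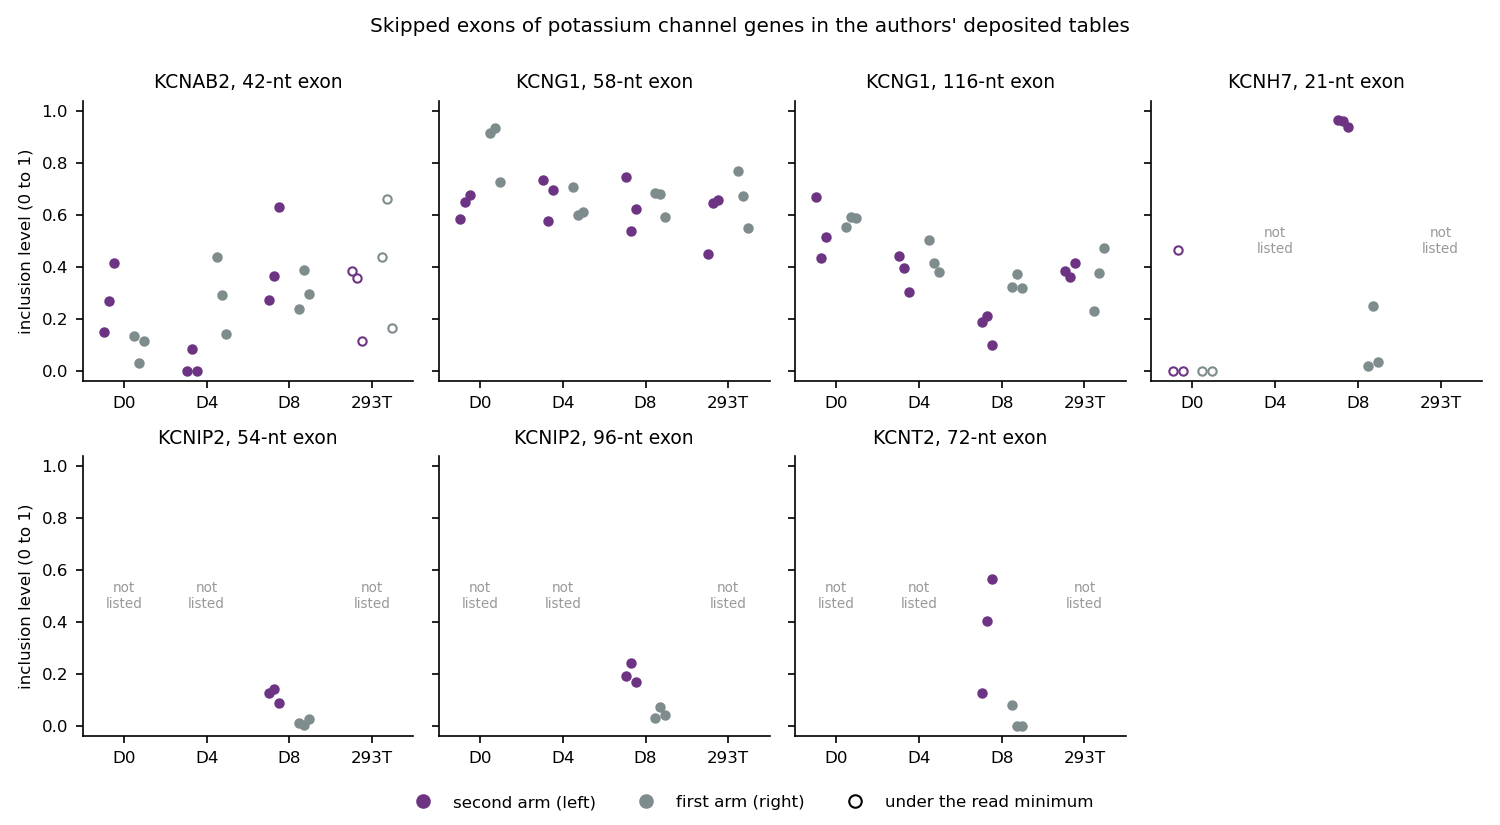
Inclusion level of 7 skipped exons of potassium channel genes in the authors' deposited tables for D0, D4, D8 and 293T cells, second arm left and first arm right; each point is 1 library and open points fall under the read minimum. At D8 the KCNH7 exon lies between 0.939 and 0.968 for the second arm and between 0.017 and 0.248 for the first.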

How the data were processed

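RNA sequencing of 30 samples in 10 groups of 3 was used: 18 whole-cell and 6 nuclear libraries as gene counts, and 4 tables of skipped exons, the only data of the 6 293T libraries analysed here. The deposited gene tables hold raw read counts, whole numbers per gene that are not normalized. The skipped-exon tables have rMATS columns per the file headers: junction read counts, inclusion fractions and p-values with FDR for each event, and a difference score that the authors took as first minus second arm. UMI-tools, cutadapt, STAR, featureCounts and DESeq with hg19 are listed in the submitters' processing notes; not given in the sources used here are tool versions, annotation and strand setting.

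From the counts, edgeR 4.0.16 (R 4.3.3) quasi-likelihood tests were fitted with TMM scaling after filterByExpr, over all 18 whole-cell libraries (21761 genes, biological coefficient of variation 8.23%) and separately over the 6 nuclear ones (30481 genes, 11.9%), with Benjamini-Hochberg adjustment over all genes tested. Levels are CPM of TMM-scaled totals; log2 fold changes are KO over WT or later over earlier day. Groups follow the sample titles, and D8 holds replicates 1, 2 and 4 for KO and 2, 3 and 4 for WT. Exon differences are second minus first arm, recomputed from the deposited inclusion levels. The alternatives were DESeq2 1.42.0 (Wald test, size factors), total counts, other count filters, a replicate block, the compared groups only, leaving out each library, other event thresholds and limma 3.58.1 on logit inclusion. The edgeR tests of KO against WT and of 1 day against another were tested on simulated data with 200 changed genes. Those of the difference in KO effect between days were not. Sequences and lengths come from GENCODE 29.

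Genes named are the cardiac potassium current list and, per comparison, the 5 called members with the largest change each way, at least 1 CPM in the higher group and no overlap of libraries; others named as examples were chosen after their values were seen. The members and lists were chosen with earlier results of these data known. Results for some genes and 1 exon are not reported here.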

Additional observations from a re-analysis of the deposited data

Results flagged for a closer look

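For the following channel genes the KO effect differed between days by an edgeR test of the difference itself (adjusted p under 0.05). Between D4 and D0 the KO effect was more positive at D4 for KCNJ5 by 3.29 on the log2 scale, for KCNK10 by 1.92, for KCNK1 by 1.91, for KCNQ1 by 1.57 and for KCNQ5 by 1.43. It was more negative at D4 for KCNH4 (-2.62), KCNAB1 (-1.66), KCND3 (-1.62), KCNA1 (-1.38) and KCNMB1 (-1.38). The KCNJ5 value rests on a D0 level of 0.032 CPM in KO and 0.169 in WT, and its D0 difference of -2.39 lost its call without D0 WT replicate 1 (-1.95, adjusted p = 0.16) or 3 (-2.43, 0.069) or any 1 D0 KO library (-2.09 to -2.59, 0.068 to 0.12).

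Between D8 and D4 the effect was more positive at D8 for KCNA1 (2.25), KCNH1 (2.14), KCNK3 (1.89), KCNMB1 (1.35) and KCND2 (1.09). It was more negative at D8 for KCNJ13 (-6.83), KCNJ2 (-4.96), KCNK12 (-4.24) and KCNK5 (-2.89). The KCNK3 difference lost its call without D4 WT replicate 1 (1.51, adjusted p = 0.15) or D4 KO replicate 3 (1.51, adjusted p = 0.056), its D4 level being 0.144 CPM in either genotype.

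In 9 genes (11.5% of those tested in both, beside 11.4% of all genes) every nuclear library labelled KO lay on the other side of WT than every whole-cell D8 library labelled KO; the difference between the fractions was not tested. KCNA1, KCNH3, KCNH6, KCNJ3, KCNJ10, KCNK9, KCNK16 and KCNAB2 were higher labelled KO in whole-cell RNA, and their nuclear log2 changes were -0.86, -0.80, -1.26, -0.96, -0.85, -0.91, -1.17 and -0.47, in that order. KCNMB3 was lower labelled KO in whole-cell RNA and higher in nuclear RNA (0.72). The nuclear KCNAB2 change lost its call without nuclear labelled KO replicate 3 (-0.41, edgeR adjusted p = 0.053), with DESeq2 size factors (-0.35, 0.094), with no filter (-0.30, 0.26) and by the DESeq2 Wald test (-0.35, 0.16). For KCNJ3, the nuclear libraries labelled KO averaged 3.05 CPM and the WT ones 5.99, against 0.962 CPM labelled KO and 0.482 in WT in whole-cell RNA. The strand setting of the counts is not given, so antisense reads cannot be told apart in either fraction.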

How the results depend on the processing

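Across 198 single-gene results and 2630 alternative values, 2531 kept their side of the threshold and, where called, their direction. Of the rest, 73 fell short of the threshold, 25 passed it newly and 1 called result changed sign. This was nuclear KCNQ1, -0.09 when scaled by total counts, the cause of which was not tested. Counts of called members and exon events are not part of this tally. Counts of channel genes stayed within 1.5 times their main value under every alternative. Counts of exon events moved beyond that under 8 alternatives for D0, 7 for D4 and 8 for D8. Without 1 library, channel genes called numbered 28 to 35 for D0 (36 with all), 27 to 32 for D4 (35), 56 to 61 for D8 (59) and 55 to 63 for the nuclei (64); under the other alternatives they numbered 33 to 45, 31 to 40, 47 to 62 and 44 to 71. Exon events changed most: with a difference of at least 0.2, 1 was called at D0 and 2 at D8; the limma test called 0 at D0, 0 at D4 and 0 at D8, and 0 to 1 at D0, 0 at D4 and 0 to 1 at D8 without 1 library. Replicate numbers gave no pairing (correlation of same-numbered deviations -0.17 to 0.14); with a replicate block 41 channel genes were called for D0, 34 for D4, 54 for D8 and 59 for the nuclei, and KCNV1 at D8 had 0.15 (adjusted p = 0.48). Scaling by total counts moved the median of all genes to -0.12 at D8 and -0.72 in nuclear RNA (with TMM 0.01 and -0.27), and the share of higher calls among all genes to 73.8% at D4 (with TMM 57.6%), 37.6% at D8 (52.9%) and, for the nuclei, 25.6% (48.7%). Members under 0.1 CPM and exons near 10 reads have the least depth behind them.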

Other observations

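In D8 cells, 13 channel genes averaged under 0.1 CPM in whole-cell RNA of both groups, and all 13 were counted in nuclear RNA. KCNT1, a sodium-activated channel of neurons, had 0.0633 CPM in whole-cell libraries labelled KO and 0.077 in WT, and 5.73 CPM labelled KO and 10.4 in WT in nuclear RNA. KCNC2, a fast neuronal channel of the Shaw type, had 0.0048 CPM labelled KO and 0.0287 in WT in whole cells, and 4.43 labelled KO and 7.54 in WT in nuclei. KCNS2, a silent subunit, had no whole-cell counts at D8, and in nuclei 9.82 CPM labelled KO and 5.23 in WT (log2 fold change 0.91). Of the 10 of these genes tested in nuclear RNA, 8 were lower labelled KO and KCNS2 alone was higher. Among all genes under 0.1 CPM in both D8 whole-cell groups, 56.4% were lower in nuclear RNA and 2.48% higher. Nuclear reads of such genes were not particular to channels. The 7648 of them tested in nuclear RNA had median levels of 1.35 CPM labelled KO and 2.11 in WT. Those of the 10 channel genes were 2.97 and 4.52. The share of all such genes counted in nuclei was not computed. The median log2 fold change was -0.84 for the 10 channel genes and -0.80 for all such genes. Levels in the fractions come from separate tables and are not compared by a test.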
